A study of Mus musculus with 8 samples.

Results

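The genes described here are 36 targets of the transcription factor NRF2 and antioxidant enzymes, taken by name from a fixed list, out of 54446 genes in the count table. All 36 were found once in the count table and once in the table of TPM values (transcript levels scaled to gene length and library size), and all 36 passed the filter on low counts. They were followed through mRNA sequencing of Hepa1-6, a mouse hepatoma cell line that the labels give as C57BL/6, in 4 groups of 2 libraries. The groups were cells given trimethylamine N-oxide (TMAO, an oxidised amine derived from dietary choline) at 50 µM, cells exposed to TNF-α (a cytokine of inflammation) at 50 ng/ml, cells given both agents at these doses, and untreated control cells. Treated cells were exposed for 24 h, and all cells grew in DMEM with fetal bovine serum. For the group given both, the treatment tag reads TMAO where TNF-α would stand, and membership was taken from the titles and the protocol, which name the 2 agents. Each group has a library numbered 14 and one numbered 16. What these numbers mean is not stated, nor whether the cultures were separate, so p-values reflect the spread of these libraries alone, and that spread may be technical.

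NRF2, encoded by Nfe2l2, is held at a low level in resting cells because KEAP1 binds it and directs it to degradation. Oxidants and electrophiles disturb KEAP1, NRF2 then accumulates, pairs with a small MAF protein and binds the antioxidant response element in the control regions of its target genes. In liver cells these targets make glutathione, detoxify quinones, epoxides and heme, regenerate NADPH and thioredoxin, and store iron, beside catalases, dismutases and peroxidases that remove superoxide and peroxide directly.

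The core of the antioxidant response element was looked for as TGACNNNGC on either strand (GCNNNGTCA on the other strand) in the 300 bases around gene starts of the RefSeq promoter table, build GRCm38.p6, from 250 bases before the start to 50 after it. Of the 36 genes 31 matched that table by symbol, and 9 of these (29.0%) held the letters, against 13.99% of the 27025 genes in the table. The 9 were Nfe2l2, Gclm, Prdx1, Txnrd1, Mgst1, Sod1, G6pdx, Srxn1 and Pgd. A match describes letters in a window and is not a measured binding site. Shown here, with the core in capitals and 5′ to 3′ on the gene's strand, are upstream stretches of Gclm, which fell with TNF-α in the tests below, of Nfe2l2 itself, and of Prdx1 and Txnrd1, which carry the same core and had other patterns.
Gclm, chr3:122245408-122245446, plus strand: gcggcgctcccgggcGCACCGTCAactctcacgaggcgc
Nfe2l2, chr2:75704880-75704913, minus strand: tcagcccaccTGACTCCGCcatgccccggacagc
Prdx1, chr4:116685451-116685489, plus strand: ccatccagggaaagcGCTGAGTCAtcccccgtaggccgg
Txnrd1, chr10:82859099-82859137, plus strand: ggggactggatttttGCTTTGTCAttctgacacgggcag
The first capital stands 134 bases before the listed start in Gclm, 240 in Nfe2l2, 133 in Prdx1 and 92 in Txnrd1.

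Libraries held 24736746 to 30488605 counts, so that 3 counts correspond to 0.0984 to 0.121 CPM (counts scaled to the size of the library), a limit for counting error only. Counts were compared with edgeR's quasi-likelihood test in a fit of 4 group means over all 8 libraries, and a gene was called at an adjusted p under 0.05 over 15613 genes. The library TNF-α 16 stood apart from the others: it had the highest CPM for 24 of the 36 genes. It was above TNF-α 14 for 32 of them, where 49.8% of all genes were. The median difference between these replicates was 0.49 on the log2 scale over the 36 genes, and replicates of the other groups differed by a median of -0.14 (control), 0.00 (TMAO) and -0.01 (both agents). The control pair was uneven the other way, with control 16 above control 14 for 5 of the 36 genes, where 49.6% of all genes were. Library 16 was above 14 for 18 genes with TMAO and 17 with both agents. Ribosomal protein genes moved with TNF-α 16, at a mean of 9.92 on the log2 CPM scale there, against means between 9.05 and 9.35 elsewhere, and their part in the values below was not tested. Values without TNF-α 16 are therefore set beside those with it; the TNF-α group then has 1 library, assumed to vary like the other groups. Among markers of the line, Alb was at 347 to 442 CPM in libraries with TNF-α and 1092 to 1228 CPM in those without, Hnf4a was at 112 to 144 CPM and 209 to 214 CPM, and Apoa1 and Ttr were at 0.338 CPM or less everywhere. Of 18 markers of other cells 11 stayed below 1 CPM in every library, among them Ptprc and Adgre1 of macrophages, all 4 endothelial markers, and Col1a2 and Pdgfrb of fibroblasts. Summed levels in libraries with TNF-α were 12.3 to 16.996 CPM for 5 macrophage markers, 1.24 to 1.67 CPM for the endothelial ones, 1.28 to 1.94 CPM for 5 stellate or fibroblast markers and 50.7 to 56.0 CPM for 4 cholangiocyte markers, against 14.8 to 17.6, 0.811 to 1.33, 1.02 to 2.48 and 65.9 to 70.6 CPM in those without. Sox9 (42.6 to 49.02 CPM) and Cd68 (7.85 to 13.1 CPM) were the highest of the cholangiocyte and macrophage markers. Csf1r, Epcam and Krt7 were lower in every library with TNF-α, at 2.94 to 3.64, 4.40 to 7.24 and 2.55 to 4.22 CPM, against 6.62 to 7.81, 11.6 to 13.7 and 7.55 to 8.82 CPM in those without, and their part in the results was not tested. In bulk libraries such as these, fewer cells of a type and less RNA per cell cannot be told apart. Of 15 NF-κB target genes, 14 were called higher with TNF-α, averaged over TMAO, where 5.35% of all genes were. This list was chosen with earlier results of these data known, so it is not an independent check of the treatment.

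**Figure D1:**
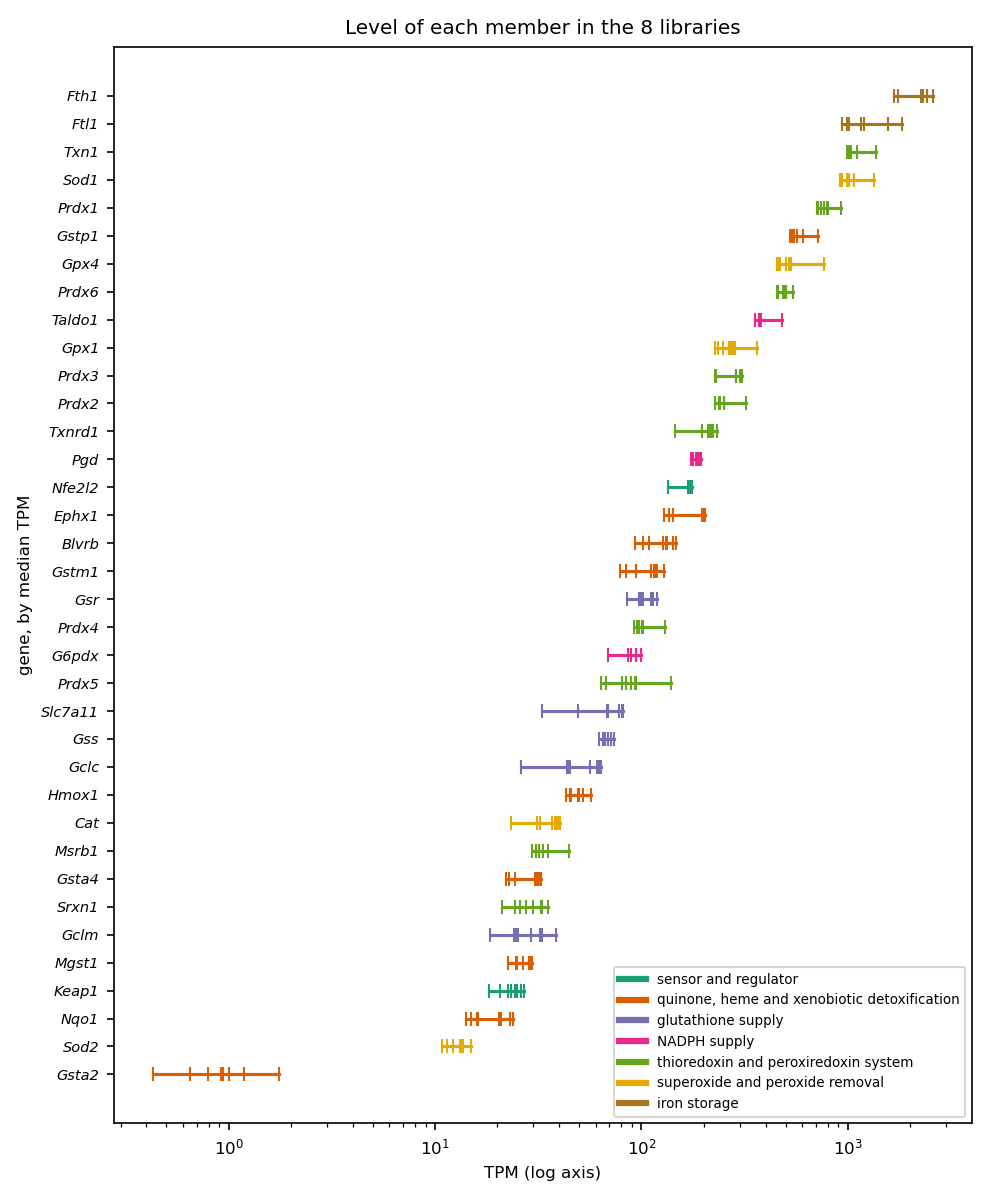
Level of each of the 36 genes, in TPM on a log axis. Each tick is 1 of the 8 libraries, the line spans their range, colours mark roles, and genes are ordered by their median, from Fth1 at 2291 TPM to Gsta2 at 0.933 TPM.

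On the TPM scale, which divides by length and allows genes to be compared, iron storage and thiol or superoxide enzymes led the list. Fth1, the ferritin heavy chain, had the highest median over the 8 libraries at 2291 TPM (range 1676 to 2585). It was followed by Ftl1, the ferritin light chain, at 1085 TPM, the disulfide reductant thioredoxin Txn1 at 1029 TPM, the cytosolic superoxide dismutase Sod1 at 1000.0 TPM and the peroxidase Prdx1 at 757 TPM. The range of each of these genes over the 8 libraries overlapped that of the next, but such ranges ignore that the genes share libraries. Mean TPM of Sod1 was above that of Prdx1 in every group. The means were 1004 and 744 with TMAO, 1127 and 815 with TNF-α, 930 and 758 with both, and 1041 and 783 in control cells. By the same measure Fth1 was above Ftl1 and Txn1 above Sod1 in every group. These means came closest with TNF-α for Fth1 and Ftl1 (2028 and 1699) and in control cells for Txn1 and Sod1 (1051 and 1041). Ftl1 and Txn1 changed order, with 976 and 1030 TPM with both agents but 1075 and 1027 TPM with TMAO. None of these orders was tested. Nfe2l2 had a median of 170 TPM and Keap1 23.9 TPM. At the lower end stood the quinone reductase Nqo1 at 18.4 TPM, the mitochondrial superoxide dismutase Sod2 at 12.7 TPM and the glutathione transferase Gsta2 at 0.933 TPM. Gsta2 rested on 4 to 18 counts a library. Fth1, Ftl1, Gsta2, Gstm1, Gstp1, Prdx1, Gpx1, Gpx4 and Txn1 have close relatives or processed copies in the genome with which counted reads may be shared, so their values are uncertain. The TPM and CPM values also disagreed between libraries, by up to 1.16 on the log2 scale for Gsta2, 1.09 for Ftl1, 0.61 for Prdx5, 0.44 for Keap1, 0.40 for Gss and at most 0.36 for the other members.

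**Figure D2:**
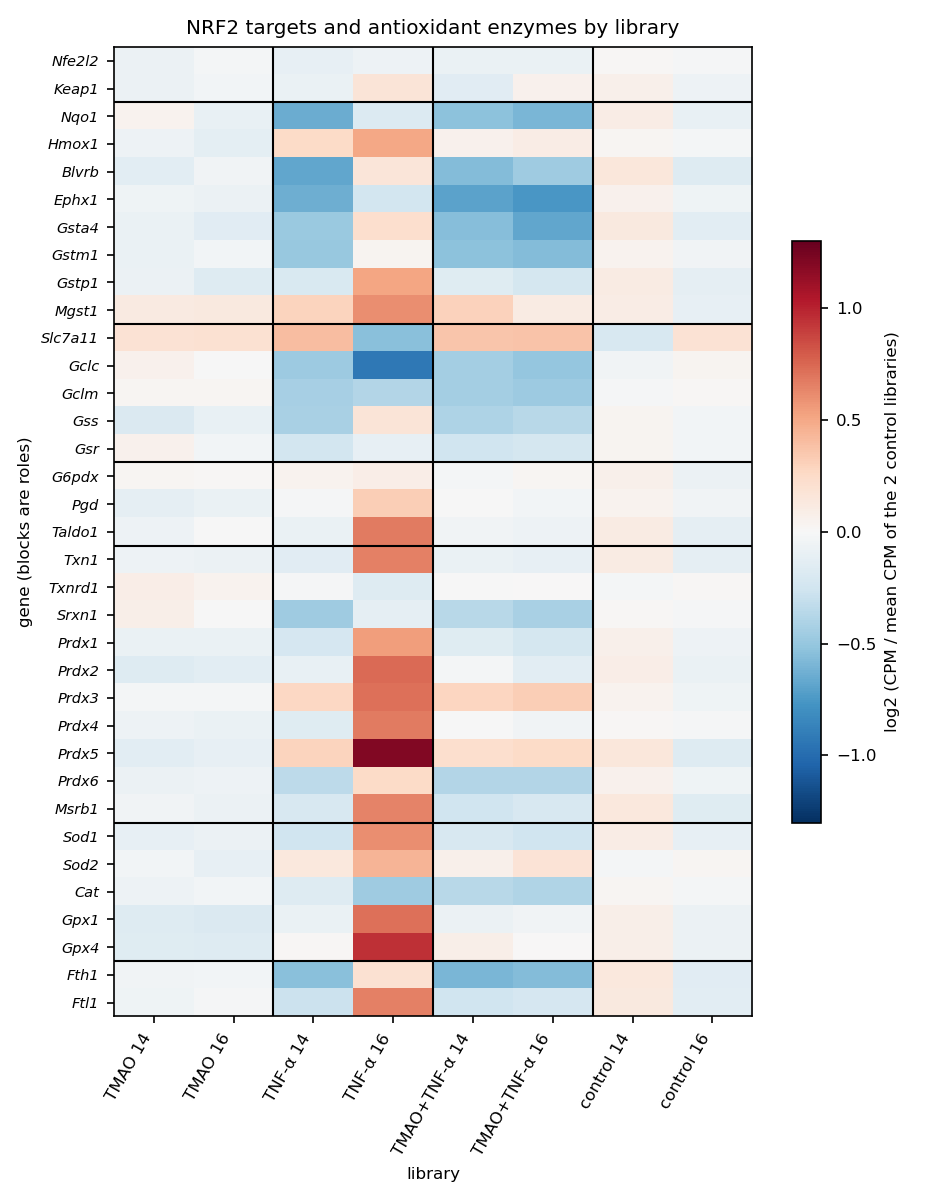
Each of 35 genes (Gsta2 is left out for its low counts) in each of the 8 libraries, as log2 of its CPM over the mean CPM of the 2 control libraries; black lines part groups and roles. TNF-α 16 stands out as a column of higher values, while TNF-α 14 resembles the 2 libraries given both agents.

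Cells given TMAO alone did not differ detectably from control cells in any of the 36 genes. No member was called with TMAO against control (0 of 36, with 0% of all genes called), by edgeR, DESeq2 or limma-voom, and none had an unadjusted p under 0.05 in these fits. Without TNF-α 16 again 0 were called (0.055% of all genes) and 3 had an unadjusted p under 0.05. The log2 fold changes of the 36 had a median of -0.06 with 28 below 0, which was 0.00 without control 14, against a median of 0.00 over all genes tested. For Nfe2l2 the change was -0.05, with a 95% interval of -0.27 to 0.17, and for Gclm 0.03, with an interval of -0.18 to 0.24. These intervals leave room for changes of that size, and a missed threshold does not show that the groups were alike.

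TNF-α was tested in 3 ways that share libraries: alone against control, with TMAO against TMAO, and averaged over both, as 4 libraries with TNF-α against 4 without. In the averaged comparison 3 of the 36 genes fell and 0 rose, where 3.86% of all genes were called lower and 5.35% higher (9.2% in all). They were Gclm and Gclc, the modifier and catalytic subunits of glutamate-cysteine ligase, the first and limiting step of glutathione synthesis, and Ephx1, the microsomal epoxide hydrolase. Without TNF-α 16 the same comparison called 16 lower and 4 higher, against 12.8% and 12.2% of all genes (25% in all). On the TPM scale Ftl1 had the opposite sign and the other genes the same sign. Gss and Prdx1 barely fell there, with mean differences in log2(TPM + 1) of -0.001 and -0.045 without TNF-α 16. For Gss, Prdx1, Prdx5 and Ftl1 the TPM values with and without TNF-α overlapped even without TNF-α 16. Among the 8990 genes with at least 10 CPM, a cut chosen after the data were seen that keeps 35 of the 36 genes, these shares were 17.9% lower and 13.6% higher. The median log2 fold change of the 36 was 0.03 with all libraries and -0.15 without TNF-α 16, and 10 of 36 changed sign between these fits; the median over all genes tested was 0.00.

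With TNF-α alone against control, 0 of 36 were called by edgeR (4.05% of all genes, 1.67% lower and 2.38% higher), 8 had an unadjusted p under 0.05, and DESeq2 called 2, Gclc and Gclm. Without TNF-α 16, edgeR called 12 lower and 1 higher (5.95% and 6.95% of all genes), and without TNF-α 14 it called 6 lower and 18 higher (25.1% and 23.7% of all genes, 48.9% in all). Between these fits 19 of the 36 genes had opposite signs, with a median log2 fold change of -0.18 without TNF-α 16 and 0.22 without TNF-α 14. With both agents against control, Ephx1 and Gclm fell (2 of 36; 1.48% of all genes were called lower, 2.01% higher and 3.49% in all), and without TNF-α 16, 16 were lower and 2 higher (9.4% and 8.99% of all genes). Fitted on the 4 libraries of those groups alone, it called 13 lower and 2 higher, where 7.47% and 8.42% of all genes were called (15.9% in all). With both agents against TMAO alone, Gclm fell (1 of 36; 1.49% of all genes were called lower, 2.16% higher and 3.64% in all), and without TNF-α 16, 13 were lower and 3 higher (7.97% and 8.07% of all genes). The same comparison fitted on its own 4 libraries, none of them given TNF-α alone, tested 35 of the genes and called 16 lower and 9 higher, where 16.1% and 15.9% of all genes were called.

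**Figure D3:**
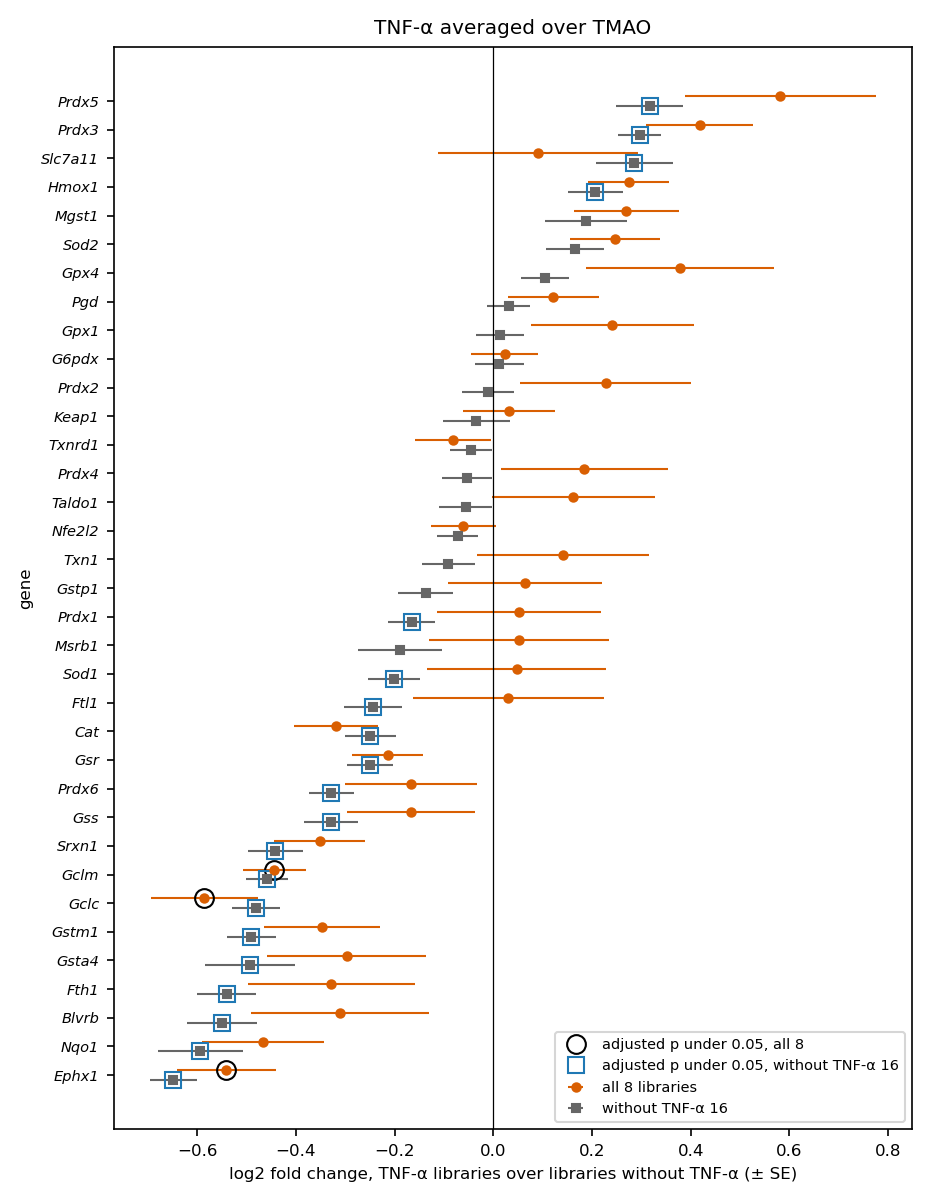
Log2 fold change of 35 genes, libraries with TNF-α over libraries without it, with its standard error, from the fit of all 8 libraries (orange circles) and without TNF-α 16 (grey squares). Rings and open squares mark an adjusted p under 0.05: Gclm, Gclc and Ephx1 with all 8 libraries, and 20 genes without TNF-α 16, of which 16 lie below 0.

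Neither the transcription factor nor its sensor was called. Nfe2l2 had 199.8 and 206.8 CPM in TMAO 14 and 16, 195.6 and 201.1 CPM in TNF-α 14 and 16, 198.9 and 197.8 CPM with both agents, and 212.3 and 208.8 CPM in control cells. All 4 libraries with TNF-α lay below both control libraries, but TNF-α 16 overlapped the TMAO libraries. The averaged log2 fold change with TNF-α was -0.06 ± 0.07 (SE; edgeR adjusted p = 0.723) and -0.07 without TNF-α 16 (adjusted p = 0.245). Keap1 had 30.7 and 31.6 CPM with TMAO, 30.6 and 36.4 CPM with TNF-α, 29.3 and 33.8 CPM with both, and 34.0 and 30.9 CPM in control cells. The groups overlapped, and its averaged change was 0.03 ± 0.09 (edgeR adjusted p = 0.906), or -0.03 without TNF-α 16. These are mRNA levels, and NRF2 protein was not measured.

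Glutathione supply held the strongest results. Gclm had 149.3 and 149.0 CPM with TMAO, 108.4 and 112.6 CPM with TNF-α, 107.9 and 105.7 CPM with both, and 144.3 and 148.3 CPM in control cells. The 4 libraries with TNF-α were all below the 4 without, TNF-α 16 included, and replicates lay within 5 CPM of each other. The averaged log2 fold change was -0.44 ± 0.06 (a fold change of 0.735; edgeR adjusted p = 0.00610), and -0.46 without TNF-α 16. With each of the 8 libraries left out in turn it lay between -0.46 and -0.42, and it missed the threshold without control 16, either TMAO library or either library given both agents (edgeR adjusted p of 0.0529 to 0.0648). The 2 called changes that follow also missed it without any 1 control, TMAO or combined library. In the single comparisons Gclm changed by -0.45 ± 0.09 with both agents against control (adjusted p = 0.0449), by -0.48 ± 0.09 with both against TMAO (adjusted p = 0.0356) and by -0.41 ± 0.09 with TNF-α against control (adjusted p = 0.0601). Without TNF-α 16 these were -0.46, -0.48 and -0.43, and all were called. On the deposited TPM values limma gave -0.51 for the averaged comparison (adjusted p = 0.0644) and -0.29 with both agents against control (adjusted p = 0.697).

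Gclc had 103.0 and 98.7 CPM with TMAO, 71.9 and 52.2 CPM with TNF-α, 73.1 and 70.3 CPM with both, and 96.5 and 102.2 CPM in control cells. The groups with and without TNF-α did not overlap, and TNF-α 16 was the lowest library. The averaged change was -0.59 ± 0.11 (edgeR adjusted p = 0.0176), or -0.48 without TNF-α 16, so the fall was smaller but remained called. Leaving out any 1 control, TMAO or combined library ended the call, at changes of -0.60 to -0.56 (edgeR adjusted p of 0.0813 to 0.114). Gss, which adds glycine in the second step, and Gsr, which reduces oxidised glutathione, had averaged changes of -0.17 and -0.21 that were not called with all libraries. Without TNF-α 16 both were called lower, at -0.33 and -0.25. On the TPM scale Gss showed no such fall, with a mean difference in log2(TPM + 1) of 0.00 without TNF-α 16, and Gsr had -0.19.

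Slc7a11, the cystine transporter that feeds glutathione synthesis, followed another pattern, and was singled out after its values were seen. It had 296.0 and 299.6 CPM with TMAO, 343.6 and 179.3 CPM with TNF-α, 335.3 and 336.8 CPM with both, and 225.2 and 295.8 CPM in control cells. TNF-α 16 was the lowest of the 8 libraries and TNF-α 14 the highest. Its averaged change was 0.09 (edgeR adjusted p = 0.876) with all libraries and 0.29 without TNF-α 16 (adjusted p = 0.0221). With both agents against TMAO, fitted on those 4 libraries, it was 0.19 (edgeR adjusted p = 6.31e-07), where 31.9% of all genes were called. In the fit of all 8 libraries, and with DESeq2 and limma-voom, Slc7a11 was not called in that comparison.

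**Figure D4:**
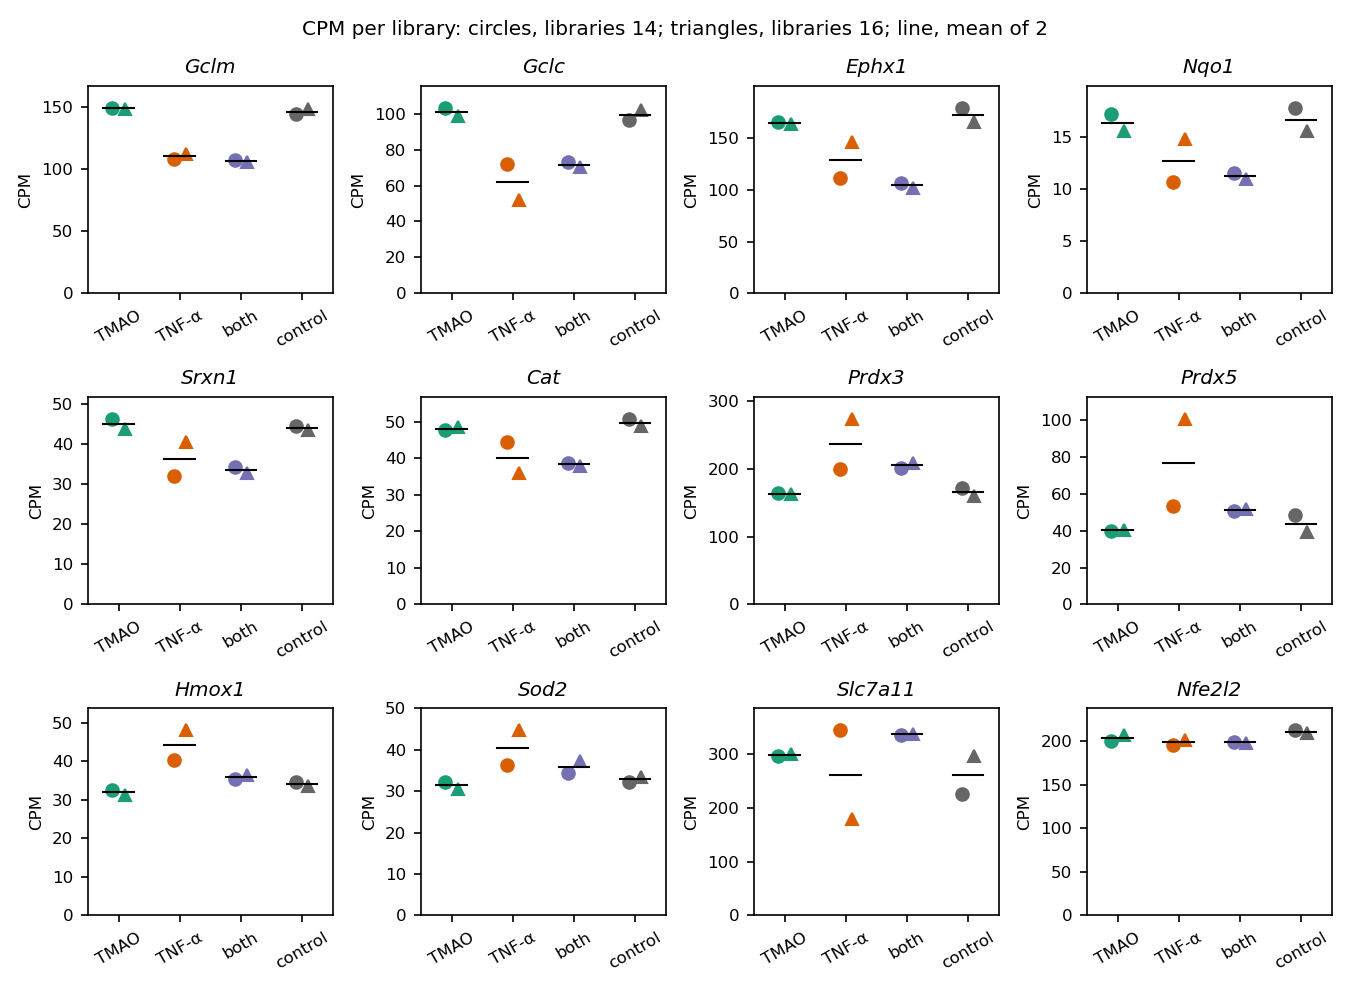
CPM of 12 of the genes in each library, by group, with circles for libraries numbered 14, triangles for libraries numbered 16 and a line at the mean of 2; "both" is TMAO with TNF-α. Gclm and Gclc are lower in all libraries with TNF-α, while Slc7a11, Prdx5 and Ephx1 show the gap between TNF-α 14 and 16.

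Among the enzymes of quinone, heme and xenobiotic detoxification, Ephx1 fell. It had 165.6 and 163.3 CPM with TMAO, 110.9 and 146.0 CPM with TNF-α, 106.6 and 101.6 CPM with both, and 178.5 and 165.7 CPM in control cells. Every library with TNF-α was below every library without, and TNF-α 16 lay closest to them. The averaged change was -0.54 ± 0.10 (edgeR adjusted p = 0.0179), or -0.65 without TNF-α 16, and the change with both agents against control was -0.73 ± 0.14 (adjusted p = 0.0449). Both calls ended without any 1 control, TMAO or combined library, where the averaged change was -0.56 to -0.51 (edgeR adjusted p of 0.0685 to 0.107). Nqo1, the quinone reductase often used to read out NRF2, had 17.3 and 15.6 CPM with TMAO, 10.7 and 14.8 CPM with TNF-α, 11.5 and 11.0 CPM with both, and 17.8 and 15.6 CPM in control cells. These groups did not overlap either, yet the averaged change of -0.47 ± 0.12 missed the threshold (edgeR adjusted p = 0.0661; DESeq2 called it), and was called at -0.59 without TNF-α 16.

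The conjugating and reducing enzymes split. Without TNF-α 16, the glutathione transferases Gsta4 and Gstm1 and the biliverdin and flavin reductase Blvrb were called lower in the averaged comparison, at -0.49, -0.49 and -0.55; with it they stood at -0.30, -0.35 and -0.31 and none was called. Gstp1, Mgst1 and Gsta2 were called in neither. Hmox1, the heme oxygenase that NRF2 induces and BACH1 represses, went the other way. It had 32.5 and 31.3 CPM with TMAO, 40.3 and 48.1 CPM with TNF-α, 35.4 and 36.5 CPM with both, and 34.6 and 33.5 CPM in control cells. The 4 libraries with TNF-α were the 4 highest, with an averaged change of 0.27 ± 0.08 (edgeR adjusted p = 0.0962) that was called at 0.21 without TNF-α 16 (adjusted p = 0.0128).

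NADPH supply by the pentose phosphate pathway gave no call in any of the 7 comparisons in the fit of all 8 libraries. This held when TNF-α 16 was left out, but not for Pgd and Taldo1 when TNF-α 14 was left out. Each of these fits leaves 1 library in the TNF-α group. The members of this role are G6pdx and Pgd, the oxidative dehydrogenases, and the transaldolase Taldo1. The smallest p belonged to Taldo1, with 236.7 and 246.1 CPM with TMAO, 232.8 and 395.6 CPM with TNF-α, 238.9 and 236.4 CPM with both, and 266.0 and 228.0 CPM in control cells. TNF-α 16 alone was high, and the other 7 libraries overlapped. With both agents against TNF-α its change was -0.40 ± 0.23 (edgeR adjusted p = 0.569), and 0.03 without TNF-α 16. Pgd was called higher, at 0.09, when both agents and TMAO were fitted on their own 4 libraries (edgeR adjusted p = 0.0152).

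The thioredoxin and peroxiredoxin system held members in both directions. Prdx3, the mitochondrial peroxiredoxin, had 163.9 and 163.2 CPM with TMAO, 200.4 and 273.5 CPM with TNF-α, 202.2 and 208.5 CPM with both, and 172.4 and 160.6 CPM in control cells. All 4 libraries with TNF-α lay above the 4 without. Its averaged change was 0.42 ± 0.11 (edgeR adjusted p = 0.0620), and 0.30 without TNF-α 16 (adjusted p = 0.000123). Prdx5, found in mitochondria and peroxisomes, had 39.9 and 40.7 CPM with TMAO, 53.5 and 100.7 CPM with TNF-α, 50.8 and 51.9 CPM with both, and 48.6 and 39.1 CPM in control cells. Its groups were also separate, though control 14 came within 5 CPM of the lowest library with TNF-α, and its change of 0.58 ± 0.19 (edgeR adjusted p = 0.136) became 0.32 without TNF-α 16, which was called (adjusted p = 0.00272). On the TPM scale its groups overlapped, at 86.6 ± 3.3 TPM with both agents and 86.9 ± 9.2 TPM in control cells (SD, n = 2 each).

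Srxn1, the sulfiredoxin that repairs overoxidised peroxiredoxins, had 46.2 and 43.8 CPM with TMAO, 32.0 and 40.4 CPM with TNF-α, 34.3 and 32.8 CPM with both, and 44.5 and 43.4 CPM in control cells. The groups did not overlap. The averaged change was -0.35 ± 0.09 (edgeR adjusted p = 0.0638), and -0.44 without TNF-α 16 (adjusted p = 2.35e-05). Prdx1 and Prdx6 were called lower without TNF-α 16, at -0.17 and -0.33, whereas they stood at 0.05 and -0.17 with all libraries. Txn1, Txnrd1, which reduces thioredoxin, Prdx2, Prdx4 and Msrb1, a methionine sulfoxide reductase, were called in neither fit of the averaged comparison.

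Among enzymes that remove superoxide and peroxide, catalase and the superoxide dismutases differed in direction. Cat had 47.6 and 48.6 CPM with TMAO, 44.3 and 35.98 CPM with TNF-α, 38.6 and 37.9 CPM with both, and 50.7 and 48.8 CPM in control cells. The 4 libraries with TNF-α were the 4 lowest, and the averaged change was -0.32 ± 0.09 (edgeR adjusted p = 0.0694), or -0.25 without TNF-α 16 (adjusted p = 0.00230). Sod2, a mitochondrial enzyme and known NF-κB target, had 32.1 and 30.6 CPM with TMAO, 36.2 and 44.7 CPM with TNF-α, 34.5 and 37.2 CPM with both, and 32.2 and 33.5 CPM in control cells. Here the 4 libraries with TNF-α were the highest, with an averaged change of 0.25 ± 0.09 (edgeR adjusted p = 0.173), and 0.17 without TNF-α 16 (adjusted p = 0.0518). Cytosolic Sod1 was at 0.05 with all libraries and was called lower, at -0.20, without TNF-α 16. The glutathione peroxidases Gpx1 and Gpx4 were called in neither fit of the averaged comparison, nor with both agents against TMAO in the fit of all 8 libraries. With both agents against TMAO on those 4 libraries they were higher by 0.13 and 0.22 (edgeR adjusted p = 0.00400 and 6.29e-07), and Gpx4 was also called without TNF-α 16.

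For iron storage, Fth1 had 1012 and 1018 CPM with TMAO, 715.9 and 1201 CPM with TNF-α, 693.6 and 708.4 CPM with both, and 1145 and 943.1 CPM in control cells. The other libraries with TNF-α were the 3 lowest, and TNF-α 16 was the highest of all 8. The change with both agents against control was -0.57 ± 0.24 (edgeR adjusted p = 0.365), and -0.58 without TNF-α 16 in the fit, where it was called (adjusted p = 6.27e-05). Ftl1 had averaged changes of 0.03 with all libraries and -0.24 without TNF-α 16, the second of which was called. On the TPM scale the direction was the other one: the mean difference in log2(TPM + 1) was 0.24 with all libraries and 0.15 without TNF-α 16, and TNF-α 14 was the highest of the 8 libraries at 1825 TPM.

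Counting libraries instead of testing, 7 of the 36 genes were lower in all 4 libraries with TNF-α than in all 4 without, where 10.2% of all genes were. These were Gclm, Gclc, Gsr, Ephx1, Nqo1, Srxn1 and Cat. The 4 genes higher in every library with TNF-α were Hmox1, Sod2, Prdx3 and Prdx5, where 9.81% of all genes were. On the TPM scale the same 7 were separated, and of the 4 all but Prdx5. Without TNF-α 16 the counts were 18 lower and 5 higher, against 19.5% and 17.6% of all genes.

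The combined treatment was set against TNF-α alone to ask whether TMAO altered the response to the cytokine. No gene was called in that comparison (0 of 36, 0% of all genes; 1 member, Hmox1, had an unadjusted p under 0.05), and DESeq2 and limma-voom called 0. The median log2 fold change of the 36 was -0.31, with 33 below 0, and 0.00 without TNF-α 16, with 18 below 0. The interaction of TMAO with TNF-α likewise gave 0 of 36 (0% of all genes; 0 with an unadjusted p under 0.05 in edgeR, DESeq2 and limma-voom), with a median of -0.25 that became 0.06 without TNF-α 16, as 26 genes changed sign. For Gclm the change with both agents against TNF-α was -0.05, with a 95% interval of -0.26 to 0.16, and -0.02 without TNF-α 16. For Ephx1 it was -0.30, with an interval of -0.64 to 0.03, and -0.09 without TNF-α 16. Without TNF-α 14 instead, 26 genes were called lower and 3 higher with both agents against TNF-α, where 23.7% and 25.8% of all genes were (49.4% in all). The interaction then gave 21 lower and 2 higher, where 15.8% and 19.6% of all genes were called (35.5% in all).

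**Figure D5:**
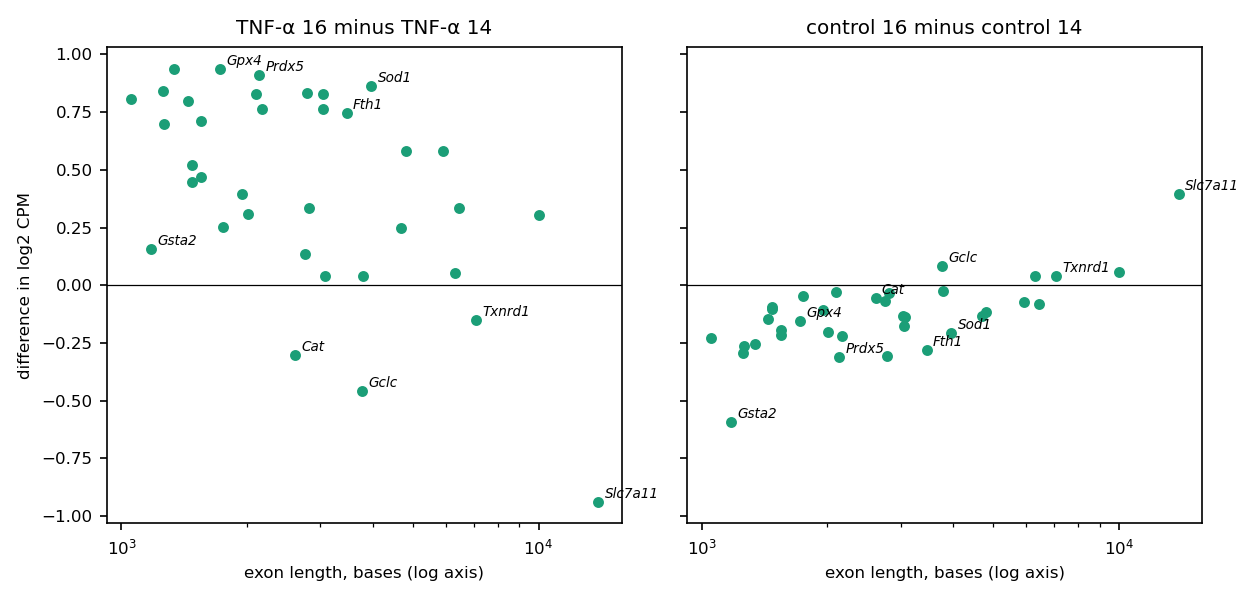
Difference in log2 CPM between the 2 replicates of the TNF-α group (left) and of the control group (right) against exon length on a log axis; each point is 1 of the 36 genes. In the TNF-α pair shorter genes lie higher in library 16 and Slc7a11, the longest, lies lowest at -0.94. In the control pair 5 of the 36 genes lie above 0, and Slc7a11 lies highest at 0.39.

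The gap between TNF-α 16 and 14 varied with gene length in a way that the other treated pairs did not show. Over the 36 genes the Spearman correlation of the difference (16 minus 14) with exon length, a description over genes of the same 2 libraries, was -0.44 for TNF-α and 0.59 for control, against 0.13 for TMAO and 0.10 for both agents. Over all genes tested with a length it was -0.37 for TNF-α and 0.25 for control. The 18 shorter genes differed by a median of 0.70 and the 18 longer ones by 0.32. Slc7a11, Gclc, Cat and Txnrd1 were the 4 genes lower in TNF-α 16, by 0.94, 0.46, 0.30 and 0.15 on the log2 scale. What lies behind this pattern was not tested.

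A wider list of 52 genes of the NRF2 pathway was read in the same way, and 46 passed the filter. With TMAO against control 0 were called, the smallest p belonging to Ggt1. In the averaged TNF-α comparison 6 fell and 0 rose, where 3.86% of all genes were called lower and 5.35% higher. These were the drug exporter Abcc3 (-0.78 ± 0.08; edgeR adjusted p = 0.00111), the UDP-glucose dehydrogenase Ugdh (-0.58), Pir (-0.63), the NADPH producers Idh1 (-0.51) and Me1 (-0.30), and Sesn2 (-0.31). Without TNF-α 16 their changes were -0.73, -0.62, -0.71, -0.54, -0.34 and -0.34, in the same order, and all were called. Abcc3, Ugdh and Idh1 were also called lower in the comparison of TNF-α alone with control and in those of both agents with control or TMAO. Abcc3 had 128.9 and 125.4 CPM with TMAO, 72.9 and 62.5 CPM with TNF-α, 74.4 and 74.7 CPM with both, and 117.2 and 116.0 CPM in control cells. Idh1 had 154.6 and 155.7 CPM with TMAO, 107.5 and 115.7 CPM with TNF-α, 111.0 and 108.4 CPM with both, and 158.0 and 163.3 CPM in control cells. Ugdh was at 317.4 to 356.2 CPM in libraries with TNF-α and 484.1 to 500.1 CPM in those without. Pir was at 5.64 to 7.20 CPM and 8.85 to 9.81 CPM, Me1 at 241.6 to 269.1 CPM and 304.2 to 313.9 CPM, and Sesn2 at 33.0 to 39.2 CPM and 43.3 to 45.9 CPM. For these 6 genes all libraries with TNF-α lay below all without. The smallest p with both agents against TNF-α, and in the interaction, belonged to Msrb2, which was not called. Without TNF-α 16 the averaged comparison called 19 of the wider list lower and 6 higher, where 12.8% and 12.2% of all genes were.

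Those 6 included Bach1, the repressor that competes with NRF2 for the same element, which was singled out after its values were seen. It had 26.7 and 29.4 CPM with TMAO, 47.8 and 24.9 CPM with TNF-α, 46.2 and 44.3 CPM with both, and 24.8 and 30.8 CPM in control cells. The 3 highest libraries had TNF-α, while TNF-α 16 was within the range of those without. The averaged change was 0.54 ± 0.20 (edgeR adjusted p = 0.178) with all libraries and 0.73 without TNF-α 16 (adjusted p = 1.70e-06). Sqstm1, which draws KEAP1 away from NRF2, had 632.4 and 624.6 CPM with TMAO, 784.9 and 1010 CPM with TNF-α, 773.0 and 787.1 CPM with both, and 682.3 and 627.8 CPM in control cells. Every library with TNF-α was above every one without, at an averaged change of 0.38 ± 0.11 (edgeR adjusted p = 0.0746) and 0.28 without TNF-α 16 (adjusted p = 0.000210).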

How the data were processed

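Polyadenylated mRNA of the 8 libraries was sequenced as paired reads on an Illumina instrument, per the labels' protocols. The authors deposited whole-number counts for each Ensembl gene, in a table named after htseq. They also deposited TPM, listed by symbol. Per the submitters' processing notes the build was mm9. Aligner, annotation and strandedness are not given in the sources, so reads of overlapping antisense genes cannot be told apart. The genes and lists were chosen with earlier results of these data known. Counts were fitted with edgeR 4.0.16 in R 4.3.3 (filterByExpr, which kept 15613 genes, TMM scaling, glmQLFit with robust set, 4 residual degrees of freedom) and adjusted by Benjamini-Hochberg over those genes. CPM is the count over TMM-scaled totals. Every library's value is given for called genes of the 36, Nfe2l2, Keap1 and the smallest p of each role; others were named after their values were seen. Symbols and exon lengths came from GENCODE M21, to which 54409 of 54446 identifiers matched without version. Alternatives were DESeq2 1.42.0, limma-voom (limma 3.58.1), other scalings and filters, a replicate block, left-out libraries, separate fits of the groups compared and limma on log2(TPM + 1) and log2(TPM + 0.1). Programs were tested on simulated data.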

Additional observations from a re-analysis of the deposited data

How the results depend on the processing

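No direction reversed among the 6 called changes of Gclm, Gclc and Ephx1 under any alternative. For TMAO against control 0 genes were called under every alternative. For TNF-α against control the count of called genes was 2 with DESeq2, 1 with no filter, 1 with at least 1 CPM in 2 libraries and 1 with each TPM pseudocount, 19 without both TNF-α 16 and control 14, and 0 to 24 with single libraries left out. With both agents against control it was 1 with total count scaling, 1 with no filter, 1 with each TPM pseudocount, 15 in a fit of those groups alone, 20 without both of those libraries, and 0 to 18 with single libraries left out. With both against TMAO the count was 2 with DESeq2, and 25 in a fit of those groups alone, where 31.9% of all genes were called. Both against TNF-α gave 0 to 29 and the interaction 0 to 23 when single libraries were left out. The averaged comparison gave 7 with DESeq2, 5 with no filter, 23 without both of those libraries and 0 to 27 with single libraries left out. Leaving out any control, TMAO or combined library brought these counts to 0, except that Gclm stayed called in the averaged comparison without control 14. Leaving out TNF-α 14 raised the counts of the 6 comparisons that involve TNF-α, and leaving out TNF-α 16 raised 4 of them, while both against TNF-α and the interaction stayed at 0. With the replicate number as a block, the counts were 0 with both agents against control and against TMAO and 3 in the averaged comparison. The 16 minus 14 differences of pairs of groups correlated at -0.42 (control and TNF-α) and at -0.05 to 0.00 otherwise. Control and TNF-α thus tended to differ in opposite directions, and no shift in the same direction went with the numbers. This cannot show whether the numbers pair the libraries, because their meaning is not stated. With 2 libraries a group, precision is limited by the spread between libraries, most of all in the TNF-α and control groups. The median absolute difference of the 36 genes between replicates was 0.55 and 0.14 on the log2 scale there. It was 0.03 with TMAO and 0.04 with both agents. Depth also limits genes with fewer counts, Gsta2 most. The causes of these shifts were not tested.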
